A study of Mus musculus with 6 samples.

Results

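Immunoglobulin variable segments were described in the duodenum of 10-week-old mice on the C57Bl/6 background, 3 of them wild-type and 3 VDR-null, that is, without a working gene for the vitamin D receptor, with 1 Affymetrix Mouse Gene 2.0 ST array per mouse. The members are the genes whose symbol starts with Ighv, Igkv or Iglv and that have a probe set paired with that symbol alone in the platform annotation. There were 17 of them among 22180 named genes: 3 heavy-chain segments, 13 kappa light-chain segments and 1 lambda light-chain segment. The targeted allele of the VDR-null mice, their sex and their diet are not stated in the sources used here. Values are log2 signals, so that 1 unit is a doubling, and the median over all probe sets and arrays was 5.17.

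An antibody chain is encoded by a variable segment that a developing B cell joins to short diversity or joining segments and then expresses with a constant region. Heavy chains come from the Igh locus and light chains from the Igk or Igl locus. Each B cell clone has its own joined segments, and many clones can use the same variable segment. In the intestine most immunoglobulin RNA is made by plasma cells of the lamina propria, which release IgA that the epithelium carries into the lumen. In the segment names, the number after the locus is the subgroup of related sequences. RefSeq's gene table (GRCm38.p6) holds all 17 members and lists them as V segments, not as pseudogenes. The 3 heavy-chain members lie in the locus on chromosome 12, which has 183 variable segment entries, and all belong to subgroup 1. The kappa members lie on chromosome 6 among 162 entries, and range from Igkv6-14, with 14 entries between it and the constant region Igkc, to Igkv1-133, with 156. Iglv1 is 1 of 3 entries on chromosome 16. None of the members is in the promoter table used here, so no sequence is shown.

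Markers of the tissue were measured. All 10 genes of a duodenum list, among them the transcription factor Pdx1 and the hormone Cck, passed the filter on dim genes. So did all 14 measured brush border genes. The filter asks for at least 3 of the 6 arrays above 5.17 and left 13174 of 22180 named genes. Passing it does not check the label of a single array. The brush border list averaged -1.59 on wild-type replicate 1, as a deviation from the average over the 6 arrays. Its gene Lct read 5.74 there and between 9.49 and 11.69 on the other arrays. Of 21 measured B cell genes 13 passed the filter. Ms4a1 (CD20), Cr2 and Fcer2a, which mark mature follicular B cells, lay below 5.17 on every array, between 3.34 and 4.02. Other genes of the list lay above 5.17 on every array, among them Cd79b (7.17 to 7.99), Cd22 (6.10 to 6.50) and Tnfrsf13c (6.41 to 6.96). All 20 measured plasma cell genes passed. Of 9 measured V(D)J recombination genes 5 passed. Rag2 and Dntt, which act in segment joining in lymphoid precursors, stayed below 5.17 on every array. Of the surrogate light chain of precursor B cells, Vpreb1 (3.53 to 3.97) and Igll1 (4.45 to 4.78) also stayed below it. Vpreb2, of the same chain, read between 5.42 and 6.04.

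All 17 variable segments passed the filter. Each had all 6 arrays above the median of the table except Igkv8-19, which had 5, and Ighv1-54, with a mean of 7.03, came next above it in signal. Signals of different probe sets depend on their probes, so the order of the segments by signal is not an order of RNA amounts. The probe sequences were not used here, and how far a probe set also reads related segments of its subgroup was not tested.

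**Figure D1:**
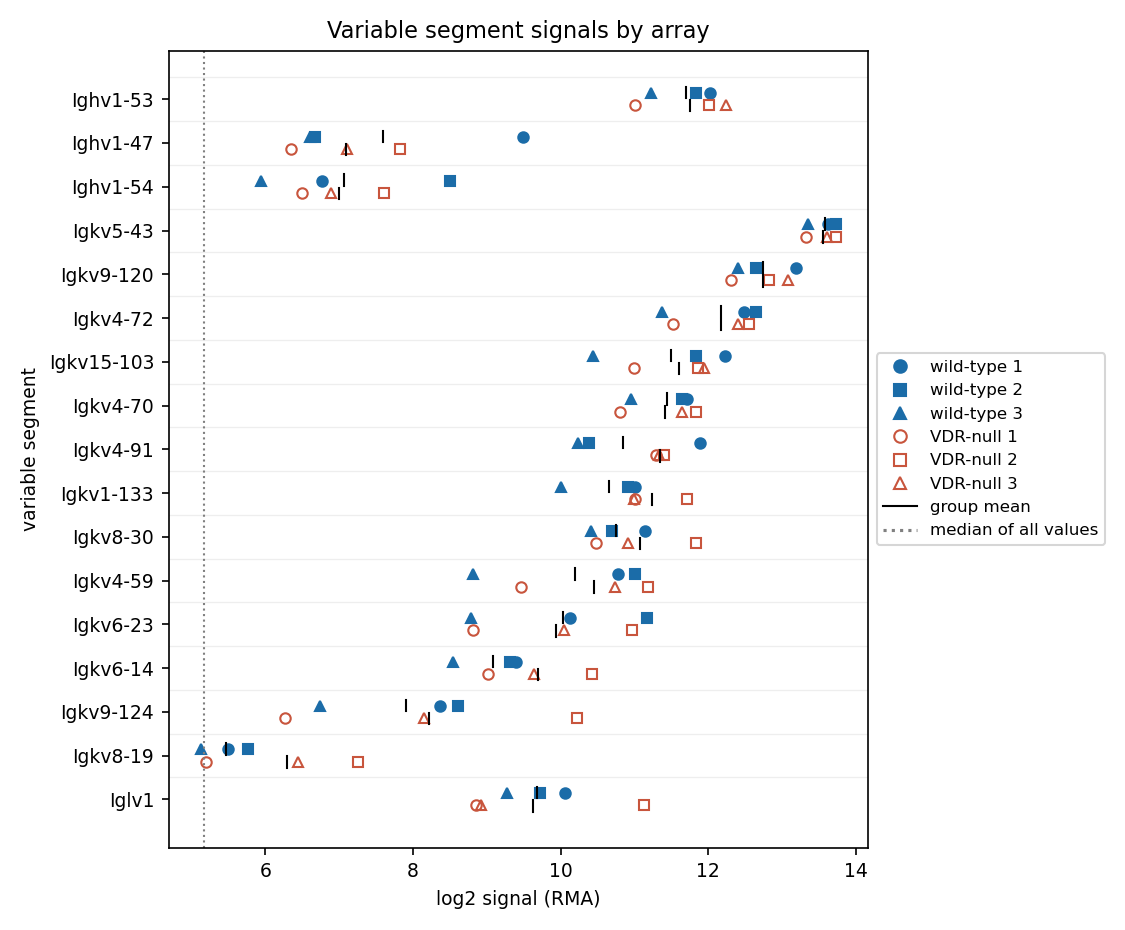
Log2 signal of each of the 17 variable segments (rows) on the 6 arrays; filled blue symbols are wild-type and open red symbols VDR-null replicates, black ticks are group means and the dotted line is the median of all values, 5.17. The triangle of wild-type replicate 3 and the circle of VDR-null replicate 1 lie at the low end of most rows, and the genotypes overlap in each row.

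Among the heavy-chain segments, Ighv1-53 read 12.02, 11.84 and 11.23 on the arrays of wild-type replicates 1 to 3 and 11.01, 12.01 and 12.24 on those of VDR-null replicates 1 to 3. The same order of arrays is used below. Ighv1-47 read 9.49, 6.67 and 6.60 on the wild-type arrays and 6.35, 7.83 and 7.10 on the VDR-null arrays, so that wild-type replicate 1 stood above all other arrays. Ighv1-54 read 6.76, 8.50 and 5.94 on the wild-type arrays and 6.50, 7.60 and 6.89 on the VDR-null arrays, and its highest array was wild-type replicate 2. The 3 heavy-chain segments therefore had 3 different highest arrays: VDR-null replicate 3, wild-type replicate 1 and wild-type replicate 2. In all 3 of them wild-type replicate 3 and VDR-null replicate 1 were the lowest pair.

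Subgroup 4 of the kappa locus has 4 members here. Igkv4-72 read 12.49, 12.65 and 11.37 on the wild-type arrays and 11.53, 12.56 and 12.41 on the VDR-null arrays. Igkv4-70 read 11.72, 11.65 and 10.95 against 10.80, 11.83 and 11.65, and Igkv4-59 read 10.78, 11.01 and 8.81 against 9.47, 11.18 and 10.74. In these 3 segments 2 arrays of each genotype sat close together at the top and 1 array of each genotype at the bottom, the same arrays as in the heavy-chain segments. Igkv4-91 had another pattern, with 11.89, 10.39 and 10.24 on the wild-type arrays and 11.30, 11.40 and 11.34 on the VDR-null arrays. Its VDR-null arrays spanned an SD of 0.05 and lay inside the wild-type range, below wild-type replicate 1.

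Igkv5-43 and Igkv9-120 had the narrowest ranges of all members. Igkv5-43 read 13.63, 13.74 and 13.36 on the wild-type arrays and 13.33, 13.73 and 13.61 on the VDR-null arrays. These values are at the top of the table: the highest value of any probe set was 13.61 to 13.77, depending on the array, and on wild-type replicate 2 it was Igkv5-43 itself. Igkv9-120 read 13.19, 12.65 and 12.41 against 12.31, 12.82 and 13.09. Igkv15-103, with a wider range, read 12.23, 11.84 and 10.44 against 11.00, 11.87 and 11.95. In these latter segments wild-type replicate 1 was the highest array.

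In the remaining kappa segments VDR-null replicate 2 tended to be highest. Igkv1-133 read 11.01, 10.92 and 10.01 on the wild-type arrays and 11.01, 11.71 and 10.99 on the VDR-null arrays. Igkv8-30 read 11.14, 10.70 and 10.41 against 10.48, 11.84 and 10.92, and Igkv6-14 read 9.40, 9.32 and 8.54 against 9.02, 10.43 and 9.64. In these 3 segments VDR-null replicate 2 was the highest array and wild-type replicate 3 the lowest. Igkv6-23 read 10.13, 11.17 and 8.79 against 8.81, 10.97 and 10.05, with wild-type replicate 2 on top. Igkv9-124 read 8.36, 8.61 and 6.74 against 6.26, 10.22 and 8.15. Its lowest and highest arrays were both VDR-null, and they lay 3.96 log2 units apart, a 15.6-fold span. Igkv8-19, the dimmest member, read 5.49, 5.76 and 5.12 on the wild-type arrays and 5.19, 7.26 and 6.44 on the VDR-null arrays, so that VDR-null replicates 2 and 3 lay above every wild-type array and replicate 1 did not.

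The lambda segment Iglv1 read 10.06, 9.72 and 9.28 on the wild-type arrays and 8.85, 11.13 and 8.92 on the VDR-null arrays. VDR-null replicate 2 was its highest array, and unlike most members it was low in VDR-null replicate 3 as well.

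The question of the design is whether signals differ between the genotypes. For the variable segments no difference passed the threshold. limma, with Benjamini-Hochberg adjustment over all 13174 tested genes, called 0 of 17 segments at an adjusted p of 0.05, where it called 0% of all tested genes, and 0 of 17 had an unadjusted p under 0.05, against 5.23% of all tested genes. The arrays of the genotypes overlapped in every segment, while they did not overlap in 11.1% of all tested genes (4.87% with VDR-null higher and 6.22% with VDR-null lower). Of the 17 segments 9 were higher on the VDR-null arrays and 8 lower, where 44% of all tested genes were higher. The median difference, VDR-null minus wild-type, was 0.05 over the 17 segments and -0.03 over all tested genes.

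The split of directions moved with single arrays. The number of segments with a higher VDR-null mean was 9 with all arrays, but 15 without wild-type replicate 1, 14 without wild-type replicate 2 and 16 without VDR-null replicate 1, and fell to 5 without wild-type replicate 3 and 4 without VDR-null replicate 2. The median difference was 0.46, 0.28 and 0.42 in the first 3 of these fits and -0.25 and -0.10 in the last 2; without VDR-null replicate 3 it was -0.02, with 8 segments higher. With other scalings of the arrays 11 segments (second quantile normalization), 12 (centring on the median) and 13 (cyclic loess) were higher. No direction is therefore given for the group.

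By locus, 1 of 3 heavy-chain segments and 8 of 13 kappa segments were higher, with median differences of -0.08 and 0.26. Igkv8-19 differed by 0.84 ± 0.49 (SE; 95% confidence interval -0.32 to 2.00; limma adjusted p = 0.683), with a wild-type mean of 5.46 ± 0.32 (SD, n = 3) and a VDR-null mean of 6.29 ± 1.04 (n = 3). Igkv6-14 differed by 0.61 ± 0.38 (SE) and Igkv1-133 by 0.59 ± 0.31, each with a limma adjusted p of 0.683, and Igkv4-91 by 0.50 ± 0.41 (adjusted p = 0.702). In these 4 segments the difference was above 0 whichever array was left out: it ranged from 0.36 to 1.39 for Igkv8-19, from 0.24 to 0.95 for Igkv6-14, from 0.27 to 0.77 for Igkv1-133 and from 0.20 to 1.03 for Igkv4-91. Igkv8-30 (0.33 ± 0.35, SE) and Igkv4-59 (0.26 ± 0.67) completed the 6 segments with a positive difference and the smallest p. Without VDR-null replicate 2 they were at -0.05 and -0.10, and Igkv4-59 was at -0.43 without wild-type replicate 3.

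On the other side, Ighv1-47 differed by -0.49 ± 0.80 (SE; 95% confidence interval -2.40 to 1.41; limma adjusted p = 0.841), and by 0.46 without wild-type replicate 1. Ighv1-54 differed by -0.08 ± 0.63, Igkv6-23 by -0.09 ± 0.71, Iglv1 by -0.05 ± 0.60, Igkv5-43 by -0.02 ± 0.15 and Igkv9-120 by -0.01 ± 0.26. The direction of the last 5 turned in at least 1 fit without a single array. The intervals set what 3 mice per genotype can show. That of Igkv5-43, the narrowest, ran from -0.37 to 0.32, and that of Igkv9-124, the widest, from -2.03 to 2.64. The interval of Igkv5-43 holds for its brightest probe set only, which read 13.33 to 13.74, near the highest value of 13.77. Dimmer probe sets of that symbol differed by 0.57 and 1.31. A 2-fold higher level in VDR-null duodenum lay inside the interval of 12 of 17 segments and a 2-fold lower level inside that of 7, so differences of that size are not excluded in them.

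**Figure D2:**
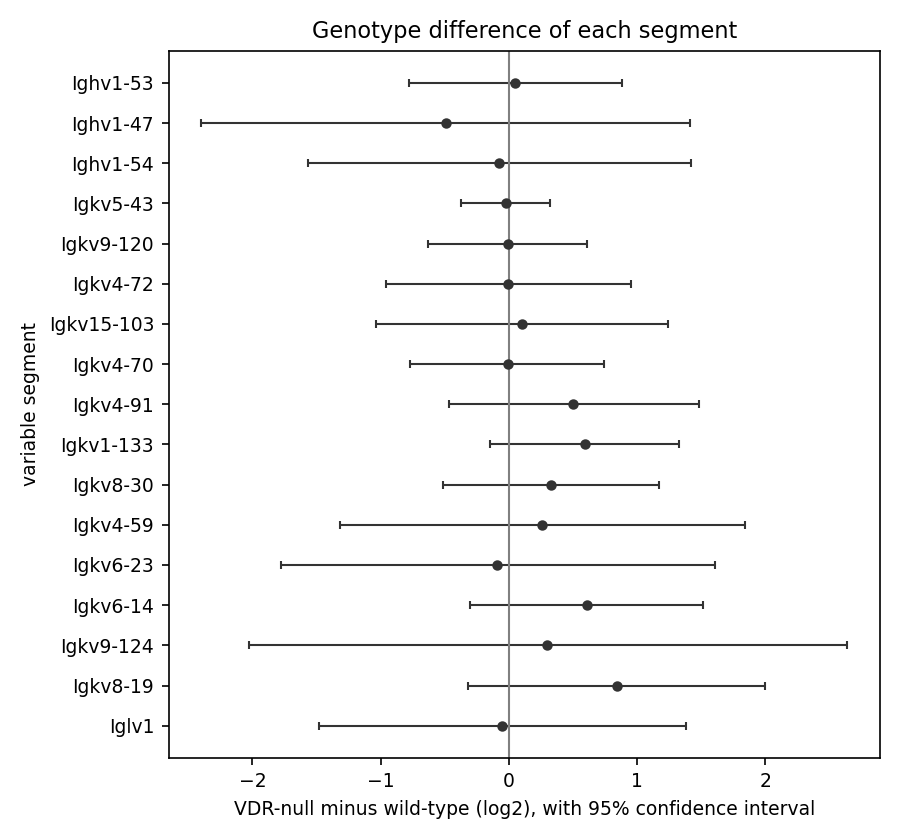
Difference between VDR-null and wild-type means for each of the 17 variable segments on the log2 scale (points), with 95% confidence intervals from limma (bars). Every interval includes 0, from the narrow one of Igkv5-43 (-0.37 to 0.32) to that of Igkv9-124 (-2.03 to 2.64).

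The spread between mice of the same genotype was wide in the variable segments. The SD within a genotype, pooled over both genotypes, had a median of 0.65 over the segments against 0.15 over all tested genes. It was above that 0.15 in all 17 segments, and 16 of 17 lay above the 90th percentile of tested genes. The exception was Igkv5-43 (0.20), whose SD still exceeded that of 67.8% of tested genes. The SD was largest in Igkv9-124 (1.57), Ighv1-47 (1.28) and Igkv6-23 (1.14). The range over the 6 arrays was widest in Igkv9-124 (3.96), Ighv1-47 (3.15), Ighv1-54 (2.56), Igkv6-23 (2.38) and Igkv4-59 (2.37), and narrowest in Igkv5-43 (0.41), Igkv9-120 (0.89) and Igkv4-70 (1.04). Across the 17 segments the SD was smaller where the mean signal was higher (Spearman's rho = -0.74, a description over segments measured on the same 6 arrays). Whether signals near the top of the scale are compressed was not tested by this value. A wide spread was not particular to the segments. The median SD within genotype was 0.64 over brush border genes, 0.60 over T cell genes and 1.24 over pancreatic acinar genes. It was 0.38 over plasma cell genes, 0.31 over macrophage genes, 0.23 over B cell genes and 0.21 over smooth muscle genes.

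**Figure D3:**
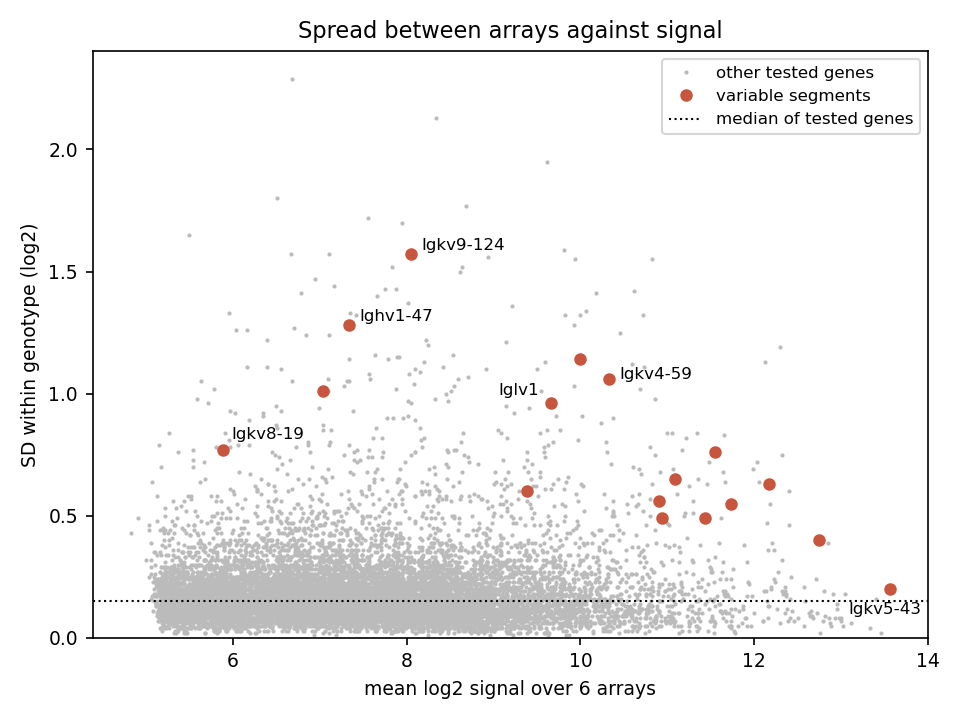
Pooled SD within genotype against the mean log2 signal over the 6 arrays for the 17 variable segments (red) and all other tested genes (grey); the dotted line is the median SD of tested genes, 0.15. All 17 segments lie above the line, and Igkv5-43, the segment farthest to the right, lies closest to it.

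Most of this spread was shared by the segments of both chains. Relative to each segment's own mean over the 6 arrays, the 17 segments averaged 0.35, 0.20 and -0.80 on wild-type replicates 1 to 3 and -0.62, 0.74 and 0.14 on VDR-null replicates 1 to 3. Wild-type replicate 3 was below the own mean of all 17 segments and VDR-null replicate 1 of 15, and VDR-null replicate 2 was above it in all 17. In 14 of 17 segments, or 82.4%, wild-type replicate 3 and VDR-null replicate 1 were the lowest pair of arrays, against 10.7% of all tested genes. This pair was singled out after the values were seen. The exceptions were Igkv4-91, Igkv1-133 and Iglv1. The array averages carried 57.6% of the segments' sum of squares around their own means. The low pair and the highest array did not follow the genotypes, since each genotype had 1 low array. In bulk tissue, fewer cells that carry these transcripts and less RNA per cell cannot be told apart.

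**Figure D4:**
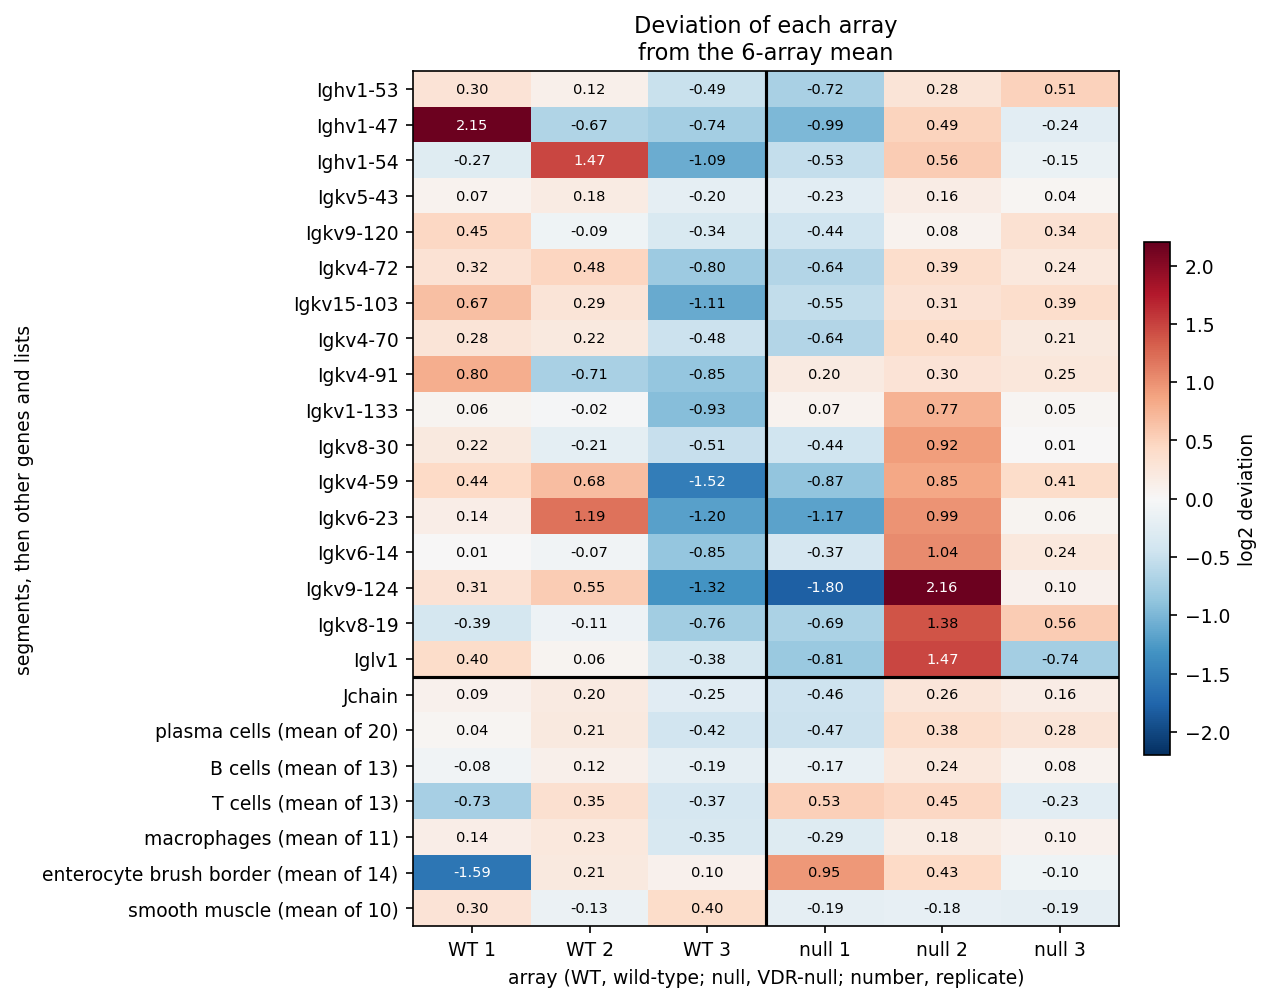
Log2 deviation of each array from the mean of the 6 arrays for the 17 variable segments (above the line) and for Jchain and the means of 6 gene lists (below it), with red above and blue below the mean. Wild-type replicate 3 and VDR-null replicate 1 are blue in nearly all segments, in Jchain and in the plasma cell list, while the brush border list is lowest on wild-type replicate 1 (-1.59) and highest on VDR-null replicate 1 (0.95).

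Genes of plasma cells, which express the segments, mostly shared their lowest pair of arrays and had a lower median range. The order of the other arrays differed. Jchain, which encodes the chain that joins IgA units, read 12.41, 12.52 and 12.07 on the wild-type arrays and 11.86, 12.58 and 12.48 on the VDR-null arrays, a difference of -0.03 ± 0.21 (SE; limma adjusted p = 0.962) that turned to 0.19 without VDR-null replicate 1. Its lowest pair of arrays was the one seen in the segments. That held for 17 of 20 plasma cell genes (85%), among them the chaperone cofactor Mzb1, the transcription factors Irf4 and Prdm1 and the receptor Tnfrsf17 (BCMA). The mean of the plasma cell list was 0.04, 0.21 and -0.42 on the wild-type arrays and -0.47, 0.38 and 0.28 on the VDR-null arrays, as deviations from the average over the 6. Its genes ranged over a median of 0.95 log2 units across the arrays (0.29 to 1.99), against 1.79 (0.41 to 3.96) for the variable segments. Mzb1 (1.99) and Irf4 (1.77) ranged most in the list, and Fkbp11 (0.29) and Sdc1 (0.34) least. Of the 20 plasma cell genes 13 were higher on the VDR-null arrays and 7 lower, with a median difference of 0.16, and limma called 0 of them at an adjusted p of 0.05 and 0 at an unadjusted p under 0.05. Ell2, an elongation factor, had the smallest p of the list (-0.23 ± 0.11, SE; adjusted p = 0.683), and Fkbp11 differed by -0.11 ± 0.10.

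B cell genes varied less. Their list averaged -0.08, 0.12 and -0.19 on the wild-type arrays and -0.17, 0.24 and 0.08 on the VDR-null arrays, and 5 of 13 tested genes had the same lowest pair. Cd79a, a subunit of the B cell receptor, read 6.79, 7.59 and 6.25 on the wild-type arrays and 6.56, 7.73 and 7.47 on the VDR-null arrays. Of the 13 genes 9 were higher on the VDR-null arrays and 4 lower, with a median of 0.05 and none past the limma threshold (0 at an unadjusted p under 0.05). Ebf1, a transcription factor of B cells that other cells also express, differed by -0.26 ± 0.13 (SE) and Ralgps2 by 0.37 ± 0.18, each with an adjusted p of 0.683.

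Of the 13 listed constant region genes, Ighm and Ighg3 had probe sets with a single symbol; Igha, Igkc and the lambda constant regions are not analysed here. The probe sets paired with each of these symbols differed widely in signal and range, and without probe coordinates it cannot be settled whether all of them lie in the constant region or some in other segments of the locus. Ighm encodes the constant region of IgM. Its symbol had 7 such probe sets, and in all 7 wild-type replicate 3 and VDR-null replicate 1 were the lowest pair, with ranges over the arrays from 0.35 to 2.74. The brightest read 13.38, 13.59 and 13.29 on the wild-type arrays and 13.24, 13.57 and 13.34 on the VDR-null arrays, a difference of -0.04 ± 0.13 (SE; limma adjusted p = 0.918), which was 0.06 for the mean of the 7. Ighg3, named for the IgG3 constant region, read 8.43, 8.22 and 6.84 on the wild-type arrays and 8.27, 10.74 and 9.77 on the VDR-null arrays on its brighter probe set. The difference was 1.76 ± 0.67 (SE), with an unadjusted p of 0.035 and an adjusted p of 0.683 in limma. Its other probe set read between 4.82 and 5.39 on the 6 arrays, around the median of the table, and the mean of both gave 0.89.

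Other cell types of the sample did not all share the lowest pair of arrays. It was the lowest pair in 9 of 11 macrophage genes, with a list mean of -0.35 on wild-type replicate 3 and -0.29 on VDR-null replicate 1. T cell genes were lowest on wild-type replicate 1 (-0.73) and highest on VDR-null replicate 1 (0.53), and 1 of 13 had the lowest pair of the segments. Brush border genes (0 of 14) and smooth muscle genes (0 of 10) had other orders, the latter with means of 0.30, -0.13 and 0.40 in wild-type and between -0.19 and -0.18 in VDR-null duodenum. Pancreatic acinar genes stood out on VDR-null replicate 3 (2.72). The part of these cell types in the spread of the segments was not tested.

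T cell receptor variable segments, the counterpart of the immunoglobulin segments in T cells, passed the filter in 3 of 8 cases with a single-symbol probe set. Trav9d-3 read 9.35, 10.14 and 9.02 on the wild-type arrays and 9.92, 10.09 and 9.80 on the VDR-null arrays, and Trav12-2 read 6.46, 6.72 and 6.05 against 6.64, 6.71 and 6.60. Their VDR-null minus wild-type differences were 0.43 ± 0.27 (SE) and 0.24 ± 0.17, with limma adjusted p-values of 0.683 and 0.684. None of the 3 had wild-type replicate 3 and VDR-null replicate 1 as its lowest pair, and their ranges were 0.53 to 1.12 log2 units.

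Some segments still varied widely after the shared part was subtracted. With the average of the tested segments of the same locus subtracted on each array, Igkv9-124 ranged over 2.63 log2 units. It ran from -1.22 on VDR-null replicate 1 to 1.41 on VDR-null replicate 2. Those arrays were also low and high in the average of all 17 segments (-0.62 and 0.74). Subtraction does not separate a wider swing of the shared pattern from variation of Igkv9-124 alone. Ighv1-47 ranged over 2.40, with 1.42 on wild-type replicate 1, and Ighv1-54 over 2.16, with 1.17 on wild-type replicate 2. With 3 segments in the heavy-chain average, each of them weighs on it; against the average of all 17 segments these peaks were 1.80 and 1.28. Igkv4-91 ranged over 1.67, from -0.89 on wild-type replicate 2 to 0.78 on VDR-null replicate 1. After the average of all 17 segments was subtracted, the median SD within genotype was 0.44, against 0.65 before. The peaks of these 4 segments were thus on 4 different arrays, that of Igkv9-124 on the array with the highest average of all 17 segments.

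For the symbol Igkv5-43 the choice of probe set decided what was seen. It had 3 single-symbol probe sets. The brightest (17459421), which represents the segment above, ranged over 0.41 log2 units. Probe set 17467489 read 9.48, 10.88 and 8.68 on the wild-type arrays and 8.62, 11.78 and 10.37 on the VDR-null arrays, a range of 3.16. Probe set 17467483 read 8.26, 9.76 and 6.62 against 8.24, 10.57 and 9.76, a range of 3.94. Both dimmer sets were highest on VDR-null replicate 2, while the brightest was highest on wild-type replicate 2. Their VDR-null minus wild-type differences were 0.57 and 1.31, and the mean of the 3 probe sets differed by 0.62 (limma adjusted p = 0.736).

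Another 5 probe sets are paired with several symbols, at least 1 of them a variable segment, and are not members. All 5 were lowest on wild-type replicate 3 or VDR-null replicate 1. Of them, 4 read 12.64 or more on every array and had an SD within genotype of 0.06 to 0.21. They are paired with Igkv9-124 and Igkv4-70 (range 0.28), and with Ighv1-47, Ighg3 and Ighm (0.35). The others carry Ighv1-54, Igkv1-135 and Ighm (0.43), and Igkv6-23, Igkv4-53 and Igkj1 (0.16). The member probe sets of Igkv9-124, Ighv1-47, Ighv1-54, Igkv6-23 and Igkv4-70 ranged over 3.96, 3.15, 2.56, 2.38 and 1.04. Which of the symbols the shared sets read was not tested. The fifth, paired with Ighv1-72 and Ighm, read 11.45, 12.40 and 10.85 on the wild-type arrays and 10.93, 12.27 and 11.93 on the VDR-null arrays. The differences of the 5 lay between -0.09 and 0.14.

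**Figure D5:**
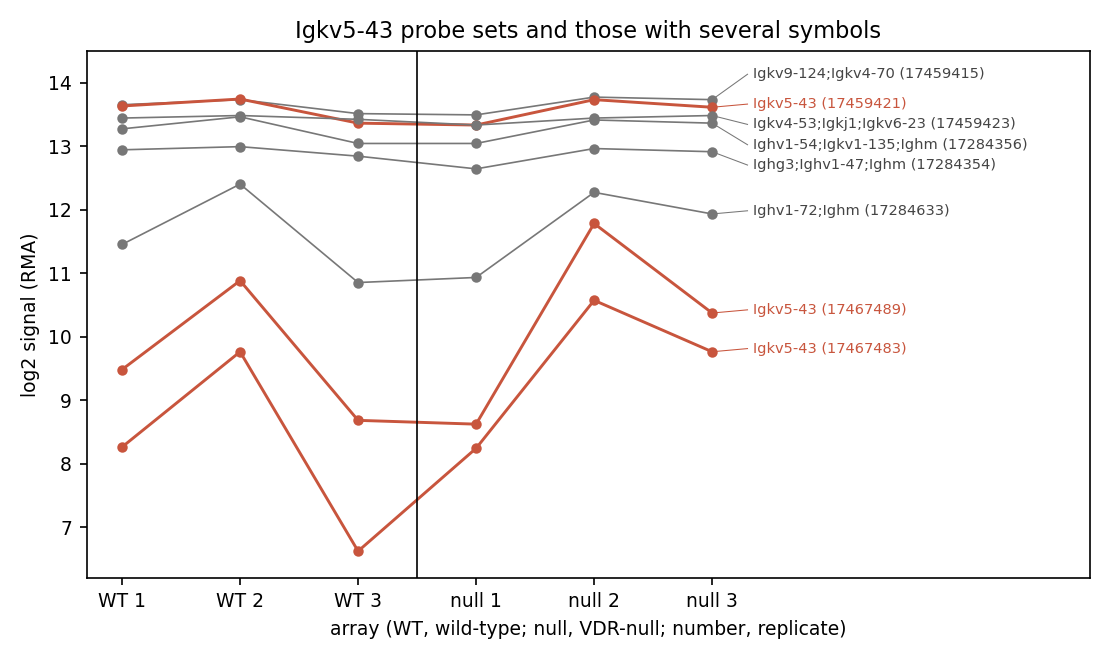
Log2 signal on the 6 arrays of the 3 probe sets paired with Igkv5-43 alone (red) and of the 5 probe sets paired with several symbols (grey); lines join the values of 1 probe set and imply no order of the arrays. The bright sets run nearly flat, while the dimmer Igkv5-43 sets span 3.16 and 3.94 log2 units.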

How the data were processed

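Duodenal RNA of 3 mice per genotype was hybridised to whole-transcript arrays, and groups follow the sample titles. The authors deposited log2 signals, 1 for each probe set and array. The submitters' processing notes name RMA and Affymetrix Expression Console; a version, and whether RMA was run on all 6 arrays at once, is not stated in the sources used here. RMA equalises the distributions of the arrays, so a change in the total of all signals is not seen. Of 41345 probe sets 23521 had 1 symbol; per gene the one with the highest mean was used. The comparison used limma 3.58.1 under R 4.3.3 (no covariate, two-sided), adjusted by Benjamini-Hochberg over 13174 genes. The procedure was tested on simulated data. The number of arrays limits the precision, and whether mice shared litters is not given. Text names all members and, of each list, the constant region genes and up to 2 genes with the smallest p; other genes named were chosen after their values were seen. The members and lists were chosen with earlier results of these data known. Lists of germinal centre, segment joining and IgA transport genes were also measured (closing section).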

Additional observations from a re-analysis of the deposited data

How the results depend on the processing

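limma called 0 of the variable segments in every alternative run (19 settings, smallest adjusted p 0.191), and the median spread within genotype stayed between 0.55 and 0.76. The median difference of the segments moved from 0.05 to 0.79 with array weights, which gave a weight of 4.03 to VDR-null replicate 2 and of 0.38 to 2.03 elsewhere, and to 0.76 without both replicate 1 arrays; 17 of 17 segments were then higher in each. Over all 24 probe sets with a variable segment symbol 14 were higher. With array weights the median was 0.51 for plasma cell genes (0.42 without both replicate 1 arrays, 0.16 with all arrays weighted equally), 0.24 for B cell genes and 1.57 for the constant regions (Ighm and Ighg3). Without single arrays the segments higher in VDR-null duodenum numbered 4 to 16, and their median difference ran from -0.25 to 0.46. That of plasma cell genes ran from -0.06 to 0.36 and that of B cell genes from -0.09 to 0.17. For the constant regions it ran from 0.53 to 1.23. This last median is the midpoint of 2 genes, Ighm (-0.04 with all arrays) and Ighg3 (1.76 on its brighter probe set). The dimmer Ighg3 probe set differed by 0.01, and the sign of Ighm turned in 6 of 18 alternatives.

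Differences that changed sign were, with array weights, 0.14 for Ighm, 0.46 for Ighv1-47, 0.77 for Ighv1-54, 0.48 for Igkv4-70, 0.60 for Igkv4-72, 0.18 for Igkv5-43, 1.13 for Igkv6-23, 0.21 for Igkv9-120, 1.15 for Iglv1 and 0.28 for Jchain. Without both replicate 1 arrays they were 0.01, 0.83, 0.02, 0.44, 0.47, 0.11, 0.53, 0.42, 0.53 and 0.23 in the same order. Cyclic loess gave 0.02 for Ighm, 0.02 for Igkv4-70, 0.04 for Igkv4-72, 0.03 for Igkv5-43, 0.04 for Igkv9-120 and 0.01 for Jchain. Centring gave 0.0049 for Igkv4-70, 0.01 for Igkv4-72 and 0.01 for Igkv9-120, and a second quantile normalization 0.0025 for Igkv4-72 and 0.02 for Igkv9-120. Averaging all probe sets of a gene gave 0.06 for Ighm and 0.62 for Igkv5-43. The cause was not tested.

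Without single arrays the differences ran from -0.13 to 0.05 for Ighm, -0.99 to 0.46 for Ighv1-47, -0.19 to 0.42 for Ighv1-53, -0.64 to 0.64 for Ighv1-54, -0.43 to 0.46 for Igkv15-103, -0.43 to 0.76 for Igkv4-59, -0.26 to 0.30 for Igkv4-70, -0.40 to 0.31 for Igkv4-72, -0.13 to 0.09 for Igkv5-43, -0.71 to 0.48 for Igkv6-23, -0.05 to 0.63 for Igkv8-30, -0.19 to 0.21 for Igkv9-120, -0.70 to 1.28 for Igkv9-124, -0.80 to 0.34 for Iglv1 and -0.17 to 0.19 for Jchain.

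Whether the replicate numbers pair the mice is not given. Over 13174 genes the deviations of same-numbered arrays from their genotype means correlated at -0.62, 0.19 and -0.26. Those of differently numbered arrays correlated at -0.60 to 0.68. With 3 arrays per genotype, each set centred on its own mean, these values cannot decide on a pairing. With the replicate number as a block limma still called 0 segments (smallest adjusted p 0.831). With the filter asking for all 6 arrays, Igkv8-19 was not tested.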

Other observations

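Genes that act around the plasma cell were measured too. Pigr, the epithelial receptor that carries IgA into the lumen, read 12.34, 12.51 and 12.41 on the wild-type arrays and 12.55, 12.50 and 12.43 on the VDR-null arrays, a difference of 0.07 ± 0.09 (SE; limma adjusted p = 0.778). In the list of IgA transport and B cell homing, 7 of 11 genes were higher on the VDR-null arrays and 4 lower (median 0.14), and limma called 0 at an adjusted p of 0.05 and 0 at an unadjusted p under 0.05. The B cell survival factor Tnfsf13b (BAFF) differed by 0.37 ± 0.17 (SE) and the chemokine Ccl25 by 0.17 ± 0.12. Of these 11 genes 4 had wild-type replicate 3 and VDR-null replicate 1 as their lowest pair, including Itga4, an integrin subunit of gut homing, which read 7.77, 7.85 and 7.03 on the wild-type arrays and 6.83, 7.73 and 7.77 on the VDR-null arrays.

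In the list of the germinal centre and class switching 4 of 7 tested genes were higher and 3 lower (median 0.15), with Basp1 at -0.24 ± 0.09 (SE; limma adjusted p = 0.683) and Fas at 0.39 ± 0.27. In the list of V(D)J recombination 1 of 5 was higher and 4 lower (median -0.10), with Prkdc at -0.26 ± 0.13 and Lig4 at 0.12 ± 0.12; no gene of either list passed the adjusted threshold, and 1 (Basp1) and 0 had an unadjusted p under 0.05. The symbol Igh-VS107 does not start with Ighv and was left out of the members by the rule. Of its 2 single-symbol probe sets, 17284314 read between 12.79 and 13.13 on the 6 arrays. The other, 17284463, read 9.87, 9.68 and 9.20 on the wild-type arrays and 9.92, 10.57 and 10.91 on the VDR-null arrays, without overlap between the genotypes (limma over all probe sets, unadjusted p = 0.0189, adjusted p = 0.732). It is given because its values were seen to separate. The joining segment Igkj1 read 11.36, 11.92 and 10.79 against 10.77, 11.98 and 11.93.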
